A study of Mus musculus with 6 samples.

Results

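Usp54, Ppm1k, Il20rb, Rfx2, Trub2, Card6, Cep162 and Cd46 are 8 genes that the study displayed among those differing between Pax7WT and Pax7KR satellite cells. They were taken by gene symbol from that display, so the measured difference between the genotypes in these same libraries chose them. For that reason their differences between the genotypes are given here as a description, without a test. They are 8 of 54115 genes matched in the deposited files and 8 of the 17152 genes with enough reads for testing, since all 8 passed the filter of 5 or more reads in 2 or more libraries.

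The study asked how loss of an acetylation site in the transcription factor PAX7 changes gene expression in satellite cells, which are the resident stem cells of muscle. RNA was taken from 3 Pax7WT and 3 Pax7KR samples of the C57BL/6J strain. Pax7KR mice carry arginine in place of an acetylated lysine of PAX7 and were made by editing zygotes with CRISPR-Cas9, and Pax7WT mice carry the unedited protein. Cells from uninjured hindlimb muscle were sorted as positive for α7-INTEGRIN and CD34 and negative for CD31, CD11b, SCA-1 and CD45, and were not cultured. The allele is carried by every cell of the mouse, so the samples do not separate an effect within satellite cells from one of their surroundings. The labels do not say whether each sample came from 1 mouse or from pooled mice, nor the sex of the animals. The mice were 6 to 8 weeks old.

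PAX7 binds DNA through a paired domain and a homeodomain and marks quiescent satellite cells. The 8 genes do not form a pathway. USP54 belongs to the ubiquitin-specific proteases, PPM1K is the mitochondrial phosphatase that activates the breakdown of branched-chain amino acids, IL20RB is a receptor subunit for interleukins of the IL-20 group, and RFX2 is a transcription factor of cilium genes. TRUB2 is a pseudouridine synthase of mitochondria, CARD6 is a caspase recruitment domain protein linked to NF-kappaB signalling, CEP162 sits at the end of centrioles and takes part in building the cilium, and CD46 restrains complement and in the mouse is known mainly from the sperm head.

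Depth lay between 17822367 and 27908054 estimated reads per library. All 14 satellite cell markers were detected, with a summed level between 10880 and 11670 CPM (reads of a gene scaled to a common normalized library size), against 17.1 to 27.8 CPM for 12 immune markers, of which 1 was at 0. Endothelial markers summed to 361 to 463 CPM in Pax7WT and 402 to 566 CPM in Pax7KR, and the 7 erythroid markers to 193, 213 and 383 CPM in Pax7WT and 357, 332 and 566 CPM in Pax7KR, with overlap. Fibro-adipogenic markers summed to 1959 to 2097 CPM, nearly all of it from Col3a1 and Dpt. Of the others on that list, Dcn stood at 24.7 to 45.28 CPM and Col1a1 at 16.02 to 28.95 CPM. The rest, Pdgfra and Ly6a among them, were each below 10 CPM. Smooth muscle and pericyte markers summed to 2827 to 3440 CPM, mostly from Notch3, which is also on the satellite cell list, myofibre markers to 192 to 271 CPM, and Schwann and glial markers to 84.5 to 131 CPM. Tek alone gave 184 to 231 CPM of the endothelial sums, and Actn3 alone 130.9 to 199.5 CPM of the myofibre sums. Where these lists move with the members below, their part was not tested. Pax7 itself was at 1551 ± 101 CPM (SD, n = 3) in Pax7WT and 1502 ± 119 CPM (SD, n = 3) in Pax7KR (log2 fold change −0.05, SE 0.08, adjusted p = 0.998 from edgeR's quasi-likelihood test with Benjamini-Hochberg adjustment). Of the libraries, 2 stood apart. Pax7KR replicate 2 did so with 4 Y-linked genes (Ddx3y, Eif2s3y, Kdm5d and Uty) summing to 131 CPM against 299 to 355 CPM in the other 5 libraries, and with the highest endothelial sum. Xist was at or below 2.29 CPM in each of the 6 libraries. Pax7WT replicate 2 did so with 10 immediate early genes, such as Fos and Egr1, summing to 17760 CPM against 25510 to 33970 CPM in the other 5 libraries, and it was in the most distant pair of libraries. Results are therefore also given without Pax7KR replicate 2 and without Pax7WT replicate 2. In RNA from bulk cells, fewer cells of a type and less RNA per cell cannot be told apart.

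The sequences that carry what follows are shown first, in 2 sets. The first set is the starts of Usp54, because most estimated reads of the gene were assigned to a transcript that begins inside the annotated gene. All genome positions are on GRCm38. Usp54-202 begins at chr14:20618354 and Usp54-201 begins at chr14:20641063, both on the minus strand. Capitals mark the last bases of the first exon that belongs to that transcript alone, and lower case the second exon that both share. Neither of the own first exons contains coding sequence.
Usp54-202: CGAATGGGTTGTCTGctctctggcacagct
Usp54-201: GCGACGGCGGGAGCGctctctggcacagct

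The RefSeq start of Usp54 is that of Usp54-202. Its window chr14:20618325-20618604 on the minus strand (GRCm38.p6) is shown with the first transcribed bases in capitals.
Usp54 promoter: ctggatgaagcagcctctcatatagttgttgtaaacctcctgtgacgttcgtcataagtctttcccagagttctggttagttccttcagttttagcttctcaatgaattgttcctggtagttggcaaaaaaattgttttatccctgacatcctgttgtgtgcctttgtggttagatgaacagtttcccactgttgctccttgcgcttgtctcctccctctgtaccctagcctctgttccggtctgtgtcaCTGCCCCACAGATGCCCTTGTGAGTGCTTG

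The second set is the edges of short transcripts of Card6, Cep162, Ppm1k and Trub2, which hold few reads but weigh on the average transcript length of their genes. Capitals mark bases that are absent from the main transcript of the gene. In Card6-202 (chr15:5108362-5108391) they are intron bases that the main transcript splices out. In Cep162-202 they are a first exon of its own (chr9:87209879-87209910). In Ppm1k-203 (chr6:57513927-57513956) and Trub2-206 (chr2:29784938-29784967) they are intron bases read past the end of an exon, and all 4 genes are on the minus strand.
Card6-202: TTTCCTGGTTTGTAGgaagcaatggctaca
Cep162-202: TTCTGGTATTAAGAGgttaaagaaatggaa
Ppm1k-203: tcggtgactgagcagGTGACGTAGCGGAGC
Trub2-206: cttctggtgtgcttgGTAAGTCTGGGGATG

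Counted as reads per gene, 7 of the 8 genes had a log2 fold change above 0 in Pax7KR satellite cells and 1, Cd46, below 0. The values of the genotypes did not overlap for 4 of the higher genes (Usp54, Il20rb, Rfx2 and Trub2) and for Cd46, and overlapped for Ppm1k, Card6 and Cep162. Over all 17152 genes tested, 5.14% did not overlap and were higher in Pax7KR, and 5.19% did not overlap and were lower. Nothing is read from the members' count against these shares, since the members were chosen on this contrast. The counts of 4 and 1 were the same without Pax7KR replicate 2 and without Pax7WT replicate 2. Groups that are apart stay apart when a library is left out, so these counts could not have fallen. At an adjusted p under 0.1, edgeR called 0.0% of the genes tested (0 genes, smallest adjusted p 0.302), with 803 genes at an unadjusted p under 0.05, while DESeq2 called 30.

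**Figure D1:**
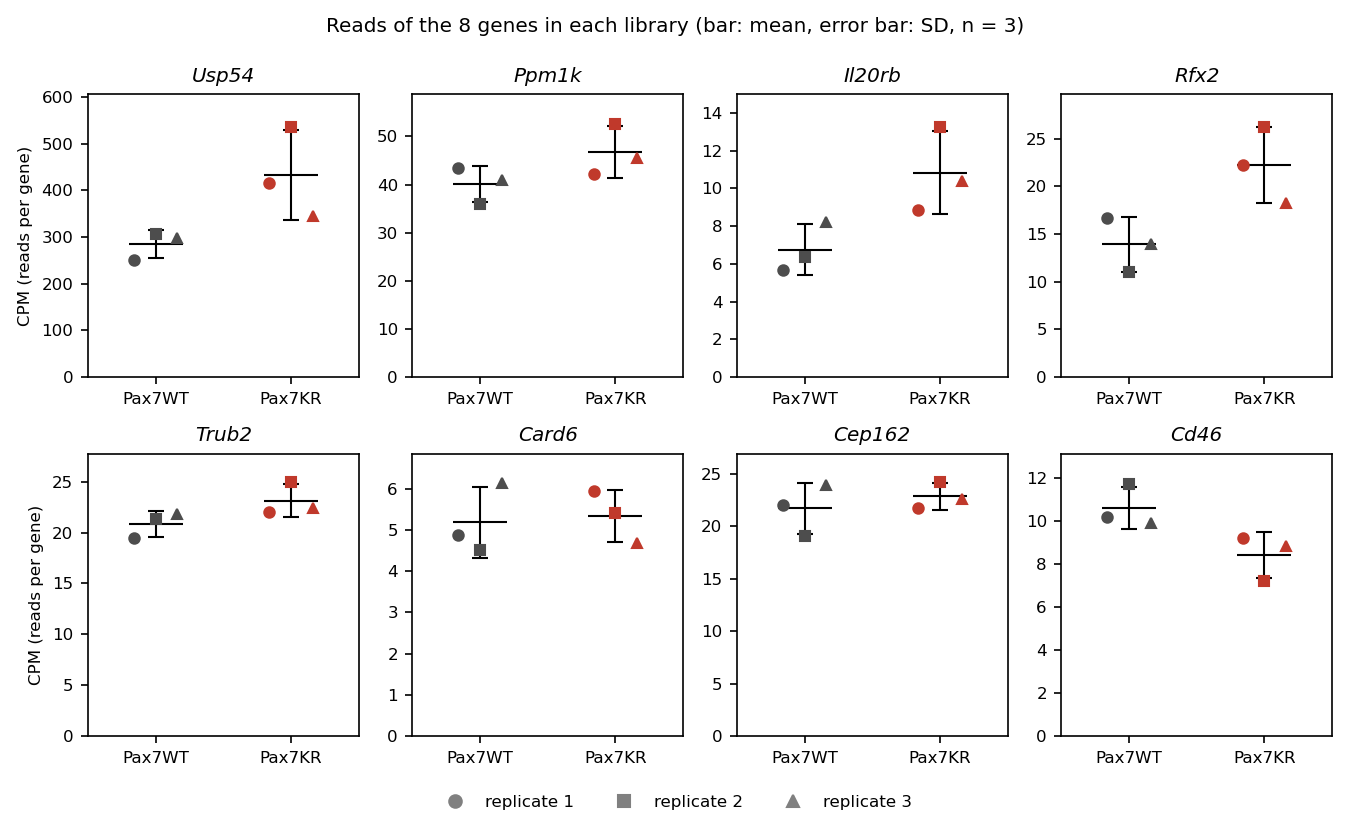
Reads of each of the 8 genes in CPM (linear axes from 0) in the 3 Pax7WT and 3 Pax7KR libraries; symbols are replicates, the wide bar is the mean and the error bar the SD. Usp54, Il20rb, Rfx2 and Trub2 lie apart with Pax7KR higher, Cd46 lies apart with Pax7KR lower, and the square of Pax7KR replicate 2 is the highest point for 6 genes and the lowest for Cd46.

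Usp54 was the most abundant of the 8. Its reads stood at 250.2, 307 and 297 CPM in Pax7WT replicates 1 to 3 and at 416, 537 and 345 CPM in Pax7KR replicates 1 to 3. Each Pax7KR library was above each Pax7WT library, with a log2 fold change of 0.60 (SE 0.18), and 0.42 without Pax7KR replicate 2. These values rest on 5444 to 12813 estimated reads, so counting error is small beside the spread between libraries, which was 10.7% of the mean in Pax7WT and 22.4% in Pax7KR.

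As assigned, the higher reads of Usp54 lay on the transcript with the inner start. Usp54-202 held 188 CPM, 235 CPM and 173 CPM in Pax7WT and 332 CPM, 482 CPM and 282 CPM in Pax7KR, without overlap. Usp54-201, from the outer start, held 52.0, 56.5 and 112 CPM in Pax7WT and 64.8, 29.9 and 47.6 CPM in Pax7KR, which overlap. The share of the gene's estimated reads on Usp54-202 was 75.4%, 76.4% and 58.3% in Pax7WT and 79.8%, 89.7% and 81.6% in Pax7KR. The groups of shares were apart, but the nearest values were 76.4% and 79.8%. The transcripts differ by their first exons alone, of 62 bases and 147 bases, in messages of 6495 and 6580 bases, so few reads separate them directly. Usp54-205, annotated as a retained intron, held 7.34 ± 1.65 CPM (SD, n = 3) in Pax7WT and 12.1 ± 1.43 CPM (SD, n = 3) in Pax7KR.

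**Figure D2:**
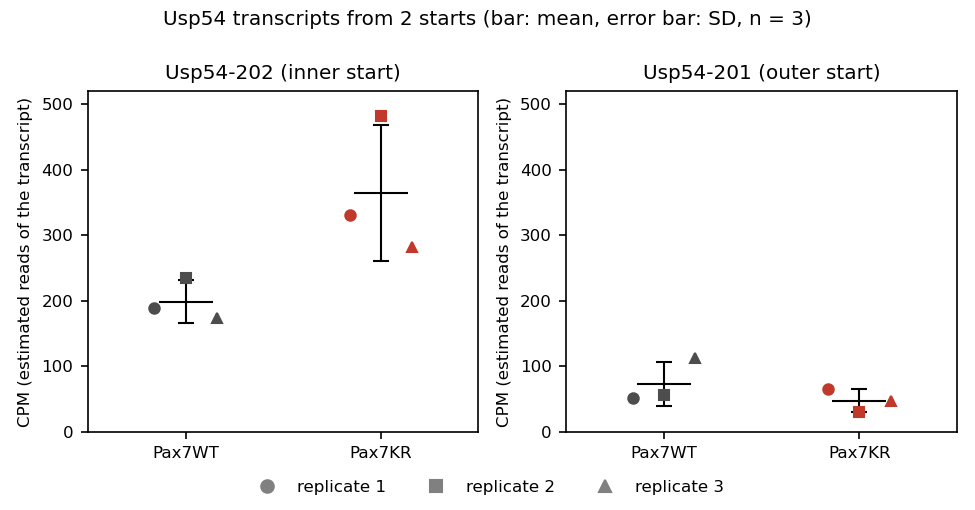
Estimated reads in CPM of the Usp54 transcripts from the inner start (Usp54-202) and the outer start (Usp54-201) in each library; symbols are replicates, bars the mean and error bars the SD. The Usp54-202 points of Pax7KR, 282 to 482 CPM, all lie above those of Pax7WT, 173 to 235 CPM, while the Usp54-201 points of the genotypes overlap.

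Il20rb, the receptor subunit, was read at 5.66, 6.38 and 8.24 CPM in Pax7WT and at 8.88, 13.2 and 10.4 CPM in Pax7KR. The groups were apart by the step from 8.24 to 8.88 CPM, and the log2 fold change was 0.69 (SE 0.19), or 0.51 without Pax7KR replicate 2. Over all libraries only 44.6% of its estimated reads lay on the protein-coding transcript Il20rb-201, which held 3.82 ± 0.654 CPM (SD, n = 3) in Pax7WT and 4.01 ± 2.52 CPM (SD, n = 3) in Pax7KR, with overlap. The processed transcript Il20rb-205, which lacks an annotated coding frame, held 60.3, 0 and 0 estimated reads in Pax7WT and 86.7, 116 and 108 in Pax7KR. As assigned, the difference in mean reads of the gene thus lay mostly on a transcript without a coding frame, with Pax7WT replicate 1 unlike the other Pax7WT libraries. Il20rb-201 itself stood at 3.29, 6.82 and 1.93 CPM in Pax7KR replicates 1 to 3. Only 114 of the 1695 bases of Il20rb-205 are absent from Il20rb-201, so over most of its length its reads are not told apart directly.

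IL20RB forms a receptor only together with IL20RA or IL22RA1. Il20ra had 3, 1 and 0 reads in Pax7WT and 1, 0 and 0 in Pax7KR, and Il22ra1 had 0 reads in all 6 libraries, where a count of 0 allows up to 3 reads per library for counting error. Messages of both partners were at or below what this depth can separate from 0. Of 8 tested genes of the IL-20 receptor family and its signalling, 7 had a log2 fold change above 0 and 0 an unadjusted p under 0.05 from edgeR, and the receptor chain Il10rb was at 20.3 CPM in Pax7WT and 17.8 CPM in Pax7KR.

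Rfx2, the transcription factor, was read at 16.7, 11.0 and 14.0 CPM in Pax7WT and at 22.2, 26.2 and 18.3 CPM in Pax7KR. The groups were apart, with a log2 fold change of 0.67 (SE 0.17) and 0.53 without Pax7KR replicate 2. The coding transcript Rfx2-202 held 84.7% of its reads over all libraries and was apart as well, at 12.1 ± 2.66 CPM (SD, n = 3) in Pax7WT and 18.5 ± 2.90 CPM (SD, n = 3) in Pax7KR. The coding transcripts Rfx2-201 and Rfx2-203 were at 0 in all 3 Pax7WT libraries and in Pax7KR replicate 3, and held 9.79 and 22.8 reads in Pax7KR replicate 1 and 21.0 and 5.03 in replicate 2.

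Among other RFX factors, Rfx1 was read at 27.4, 28.2 and 23.1 CPM in Pax7WT and 32.5, 33.4 and 29.3 CPM in Pax7KR. Its groups were apart, and its log2 fold change of 0.28 (SE 0.10) had an unadjusted p of 0.0164 and an adjusted p of 0.992 from edgeR, so it did not pass the test. Rfx3, which shares targets with RFX2 in ciliated cells, stood at 41.9 and 45.2 CPM (log2 fold change 0.11, SE 0.08, adjusted p = 0.992 from edgeR). Of 8 tested RFX genes beside Rfx2, 4 were above 0 and 4 below, with a median log2 fold change of −0.03 against 0.00 over all genes tested.

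Trub2 and Ppm1k act in mitochondria. Trub2 was read at 19.4, 21.3 and 21.8 CPM in Pax7WT and at 22.0, 25.0 and 22.4 CPM in Pax7KR. The groups were apart only by the step from 21.8 to 22.0 CPM, with a log2 fold change of 0.15 (SE 0.10), and 0.09 without Pax7KR replicate 2. Over all libraries 67.7% of its reads lay on Trub2-205, a transcript annotated as a target of nonsense-mediated decay, at 14.1 ± 1.94 CPM (SD, n = 3) in Pax7WT and 15.5 ± 1.08 CPM (SD, n = 3) in Pax7KR. Its 3 protein-coding transcripts with reads held 5.17 ± 2.53 CPM (SD, n = 3) in Pax7WT and 4.39 ± 1.33 CPM (SD, n = 3) in Pax7KR, with overlapping groups.

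Ppm1k was read at 43.4, 36.0 and 41.0 CPM in Pax7WT and at 42.2, 52.6 and 45.5 CPM in Pax7KR. The groups overlapped, with a log2 fold change of 0.22 (SE 0.10), and 0.13 without Pax7KR replicate 2. Nearly all of it, 95.5% of reads, lay on the full-length coding transcript Ppm1k-201, at 38.9 ± 4.07 CPM (SD, n = 3) in Pax7WT and 44.0 ± 5.69 CPM (SD, n = 3) in Pax7KR.

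The fixed partners of these enzymes had overlapping groups. The kinase Bckdk, which opposes PPM1K, was at 46.6 CPM in Pax7WT and 46.7 CPM in Pax7KR (log2 fold change 0.00, SE 0.07), and the dehydrogenase subunits Bckdha, Bckdhb and Dbt had log2 fold changes of 0.07, −0.03 and −0.01 (adjusted p = 0.998 for each from edgeR). Of 24 tested genes of branched-chain amino acid breakdown, 16 were above 0 and 8 below, and 0 had an unadjusted p under 0.05. Trub1, the paralog of Trub2, lay between 31.5 and 37.5 CPM in all libraries, and Rpusd3 and Rpusd4, other mitochondrial pseudouridine synthases, had log2 fold changes of −0.15 (SE 0.34) and 0.09 (SE 0.14). Of 12 tested pseudouridine synthases, 4 were above 0 and 8 below, again with 0 at an unadjusted p under 0.05.

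Card6 was the least abundant of the 8, with 80 to 136 estimated reads per library. It was read at 4.89, 4.52 and 6.14 CPM in Pax7WT and at 5.95, 5.40 and 4.68 CPM in Pax7KR. The groups overlapped, and the log2 fold change of 0.04 (SE 0.21, also 0.04 without Pax7KR replicate 2) was smaller than its error. Card6 shares 10.1% of its 31-base sequences with transcripts of other genes, nearly all of them with the processed pseudogene Gm16077, which held 9, 3 and 0 reads in Pax7WT and 0 in each Pax7KR library. Its division of reads from this pseudogene is therefore uncertain at the level of a few reads.

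Cep162 was read at 22.1, 19.1 and 23.9 CPM in Pax7WT and at 21.7, 24.2 and 22.6 CPM in Pax7KR. The groups overlapped, with a log2 fold change of 0.07 (SE 0.11), and 0.03 without Pax7KR replicate 2. Its full-length coding transcript Cep162-201 held 86.5% of the reads and was at 19.1 ± 1.81 CPM (SD, n = 3) in Pax7WT and 19.5 ± 0.555 CPM (SD, n = 3) in Pax7KR.

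For the pathways around both genes, the lists gave no called gene. Ripk2 and Nod2, a kinase and a sensor of CARD signalling, had log2 fold changes of −0.09 (SE 0.14) and 0.13 (SE 0.58). Of 19 tested genes of CARD and NF-kappaB signalling, 13 were above 0 and 6 below, and 0 had an unadjusted p under 0.05. Of 25 tested genes of the cilium transition zone and the distal appendages, 15 were above 0 and 10 below. Fbf1, a distal appendage protein, was at 59.0 ± 2.85 CPM (SD, n = 3) in Pax7WT and 68.2 ± 3.32 CPM (SD, n = 3) in Pax7KR, with an unadjusted p of 0.0106, and Rpgrip1l, a transition zone protein, had a log2 fold change of 0.35 (SE 0.15) and an unadjusted p of 0.0339, both with an adjusted p of 0.992 from edgeR. Cep290, Cep164 and Cep131 had log2 fold changes of 0.08, −0.01 and −0.07.

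Cd46 was the single member with lower reads. It was read at 10.2, 11.7 and 9.94 CPM in Pax7WT and at 9.23, 7.20 and 8.84 CPM in Pax7KR. The groups were apart by the step from 9.94 to 9.23 CPM, with a log2 fold change of −0.33 (SE 0.15), and −0.23 without Pax7KR replicate 2. The coding transcript Cd46-203 held 93.2% of the reads, at 9.75 ± 1.47 CPM (SD, n = 3) in Pax7WT and 8.13 ± 0.934 CPM (SD, n = 3) in Pax7KR, and its values overlapped between the genotypes.

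Complement regulators of other kinds were also read. Cr1l, the regulator that lies beside Cd46 and is expressed widely in the mouse, was at 62.9 ± 6.90 CPM (SD, n = 3) in Pax7WT and 62.6 ± 1.11 CPM (SD, n = 3) in Pax7KR (log2 fold change −0.01, SE 0.08, adjusted p = 0.998 from edgeR). Cd55 was at 18.7 and 16.4 CPM and Cd59a at 5.31 and 4.93 CPM, each with overlapping groups. Of 17 tested complement genes, 9 were above 0 and 8 below. Complement factor Cfb had the smallest unadjusted p of the list (0.00534, adjusted p = 0.992 from edgeR), with 0.515, 0.339 and 0.536 CPM in Pax7WT and 2.10, 2.47 and 0.520 CPM in Pax7KR, where Pax7KR replicate 3 lay within the Pax7WT range.

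Of 46 tested ubiquitin-specific proteases beside Usp54, 24 were above 0 and 22 below. Usp40 (log2 fold change 0.26, SE 0.09, unadjusted p 0.0128) and Usp29 (−0.29, SE 0.12, unadjusted p 0.0254) had groups that were apart in opposite directions, both with an adjusted p of 0.992 from edgeR. Usp53, the nearest relative of Usp54, was at 19.98 CPM in Pax7WT and 19.6 CPM in Pax7KR. Of 17 tested PPM phosphatases beside Ppm1k, 8 were above 0 and 9 below. In all, 6 of 188 tested genes in the 10 lists of relatives and partners had an unadjusted p under 0.05 from edgeR, which is 3.19% against 4.68% of all genes tested, and 0 passed the adjusted threshold. Of these, 5 were higher in Pax7KR (Rfx1, Usp40, Fbf1, Rpgrip1l and Cfb) and 1 lower (Usp29).

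More of the members were apart between the genotypes in TPM than in reads per gene. Levels in TPM (transcript abundance scaled to the same total in every library) divide the reads of each transcript by its effective length, so a read on a short transcript counts for more than a read on a long one. In TPM, the groups were apart with Pax7KR higher for 7 of the 8 genes, all but Cd46, whose groups overlapped. Over all genes tested, 9.69% were apart and higher in Pax7KR by TPM and 2.78% apart and lower, so groups that were apart by TPM were more often higher in Pax7KR across the whole table. TPM was not scaled by the normalized library sizes behind CPM, so it differs from CPM by more than transcript length. The parts of length and of scaling were not tested. Again the members were chosen on this contrast, and nothing is read from their count. The 7 were also apart without Pax7KR replicate 2 and without Pax7WT replicate 2, where leaving out a library could not make them overlap.

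Card6 showed the gap between the scales most plainly. Its TPM was 1.33, 1.23 and 1.67 in Pax7WT and 2.98, 3.08 and 2.37 in Pax7KR. Its average effective transcript length was 5899, 5854 and 5892 bases in Pax7WT and 3393, 2964 and 3233 bases in Pax7KR. The full-length Card6-201 stood at 1.41 ± 0.232 TPM (SD, n = 3) in Pax7WT and 1.40 ± 0.204 TPM (SD, n = 3) in Pax7KR. The rest of the Pax7KR level, 50.1% ± 4.05 (SD, n = 3) of the gene's TPM, lay on Card6-202, a transcript of 697 bases that keeps an intron. It held 0, 0 and 0 estimated reads in Pax7WT and 10.1, 12.8 and 8.27 in Pax7KR, and the higher TPM of the gene rested on those reads. A value of 0 here allows up to 3 reads for counting error.

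Cep162 had the same form. Its TPM was 6.61, 7.69 and 7.90 in Pax7WT and 11.4, 13.7 and 10.4 in Pax7KR, while its average length was 5368, 3948 and 4860 bases against 3240, 2978 and 3552 bases. Cep162-202, a processed transcript of 515 bases, held 7.26, 13.6 and 9.50 estimated reads in Pax7WT and 29.95, 38.0 and 24.3 in Pax7KR. That was 2.39% ± 1.46 (SD, n = 3) of the gene's reads in Pax7WT and 5.90% ± 0.746 (SD, n = 3) in Pax7KR, but 30.2% ± 14.0 (SD, n = 3) and 54.1% ± 2.63 (SD, n = 3) of its TPM. The full-length transcript stood at 3.97 ± 0.377 TPM (SD, n = 3) in Pax7WT and 4.24 ± 0.102 TPM (SD, n = 3) in Pax7KR, with overlap.

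Ppm1k and Trub2 followed it with smaller shifts. The average length of Ppm1k was 3808, 3595 and 3479 bases in Pax7WT and 2881, 3393 and 2696 bases in Pax7KR, and Ppm1k-203, of 640 bases, held 22.5, 28.6 and 18.3 reads against 59.8, 48.9 and 61.9. The average length of Trub2 was 1878, 2205 and 1757 bases in Pax7WT and 1461, 1279 and 1461 bases in Pax7KR. Trub2-206, of 371 bases, held 16.1, 0 and 0 reads against 17.7, 38.8 and 9.97, with overlap between the genotypes. The shift of Trub2 was spread over several transcripts. Its 4 retained-intron transcripts together held 0.964, 0.169 and 0.497 CPM in Pax7WT and 1.19, 2.00 and 1.47 CPM in Pax7KR, without overlap, and the long Trub2-205 held 34.1%, 34.0% and 34.3% of its TPM in Pax7WT and 24.9%, 21.9% and 27.0% in Pax7KR. A single short transcript was thus apart for Card6, Cep162 and Ppm1k, and for Trub2 the retained-intron transcripts as a class.

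**Figure D3:**
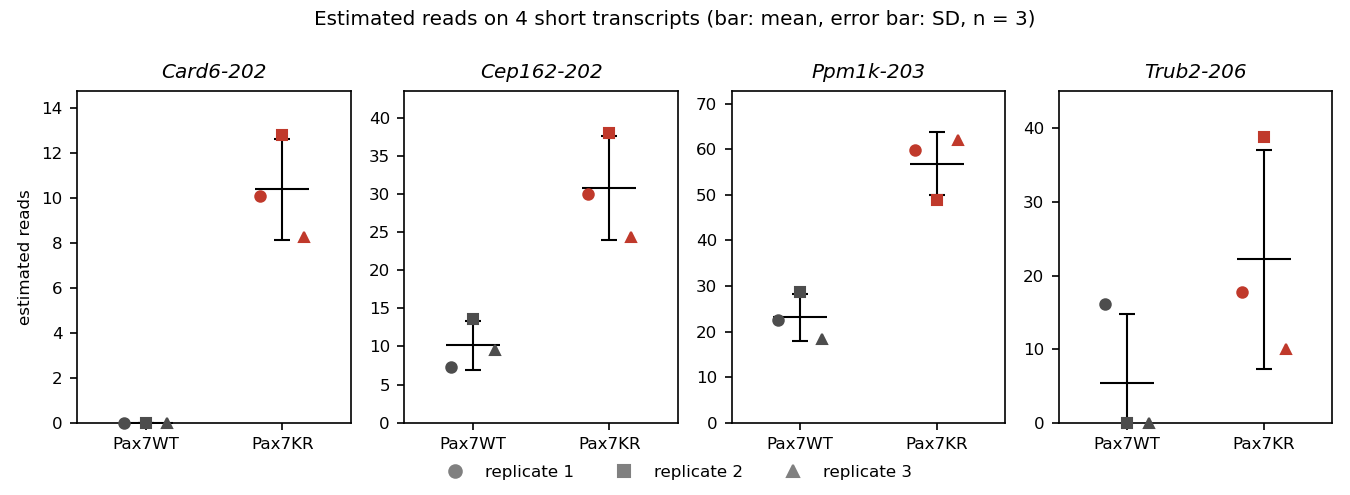
Estimated reads, not scaled for depth, on the short transcripts Card6-202, Cep162-202, Ppm1k-203 and Trub2-206 in each library; symbols are replicates, bars the mean and error bars the SD. Card6-202 is at 0 in each Pax7WT library and at 8.27 to 12.8 reads in Pax7KR, and the points of Trub2-206 overlap.

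In the average effective length, 4 of the 8 genes (Ppm1k, Trub2, Card6 and Cep162) were apart with shorter transcripts in Pax7KR, and 0 were apart with longer ones. Over all genes tested, 3.33% were apart and shorter and 6.23% apart and longer, and the median log2 ratio of Pax7KR to Pax7WT length was 0.00. The study loaded its estimates through tximport, so length may have entered the comparison that chose the members. Nothing is read from their count here either. Without Pax7KR replicate 2, Il20rb was apart as well, which made 5, and without Pax7WT replicate 2, Il20rb and Usp54 were, which made 6. Leaving out a library could only keep or raise this count. Usp54 hardly moved in its mean, from 5291 ± 228 bases (SD, n = 3) to 5253 ± 154 bases (SD, n = 3). Cd46 ran the other way, from 4286 ± 1034 bases (SD, n = 3) to 5001 ± 594 bases (SD, n = 3), with Pax7WT replicate 1 shortest at 3097 bases and overlapping groups.

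**Figure D4:**
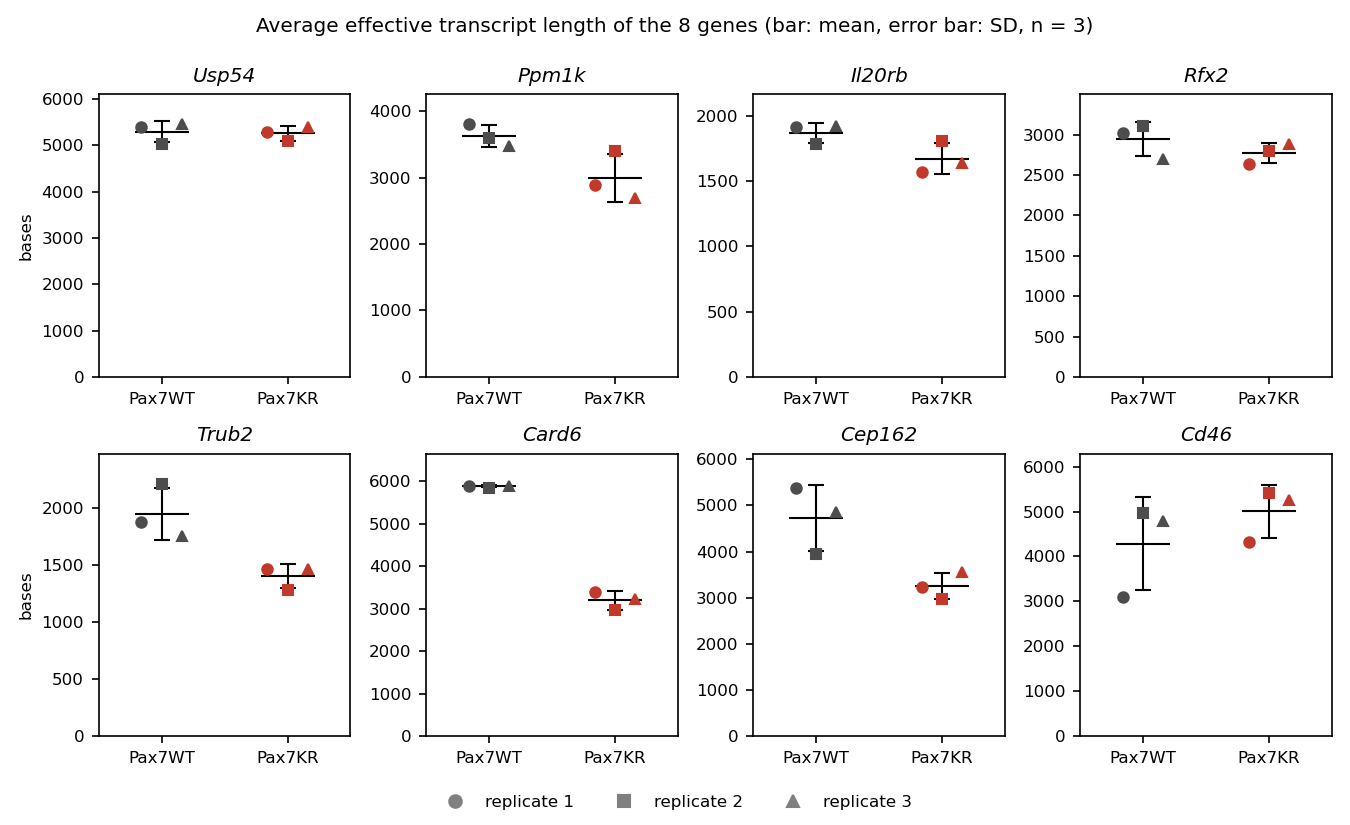
Average effective transcript length in bases (linear axes from 0) of each of the 8 genes in each library; symbols are replicates, bars the mean and error bars the SD. Ppm1k, Trub2, Card6 and Cep162 lie apart with Pax7KR shorter, and Card6 shows the widest step, from a mean of 5882 to 3197 bases.

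When edgeR took this length as an offset, which is how tximport hands lengths to a count test, the log2 fold change was 0.93 (SE 0.22) for Card6, 0.62 (SE 0.13) for Cep162, 0.63 (SE 0.14) for Trub2 and 0.50 (SE 0.10) for Ppm1k. From reads alone these were 0.04, 0.07, 0.15 and 0.22. For Usp54, Il20rb and Rfx2 the offset gave 0.62 (SE 0.18), 0.84 (SE 0.19) and 0.76 (SE 0.20), each within 0.16 of the value from reads, and for Cd46 −0.59 (SE 0.23). The offset thus added 0.88 for Card6, 0.54 for Cep162 and 0.47 for Trub2, which was more than their value from reads. For Ppm1k it added 0.29 to 0.22 and for Cd46 −0.25 to −0.33, so that reads and length had parts of like size in both genes. For Usp54, Il20rb and Rfx2 most of the difference lay in the number of reads. The part of assignment among overlapping transcripts in these lengths was not tested.

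**Figure D5:**
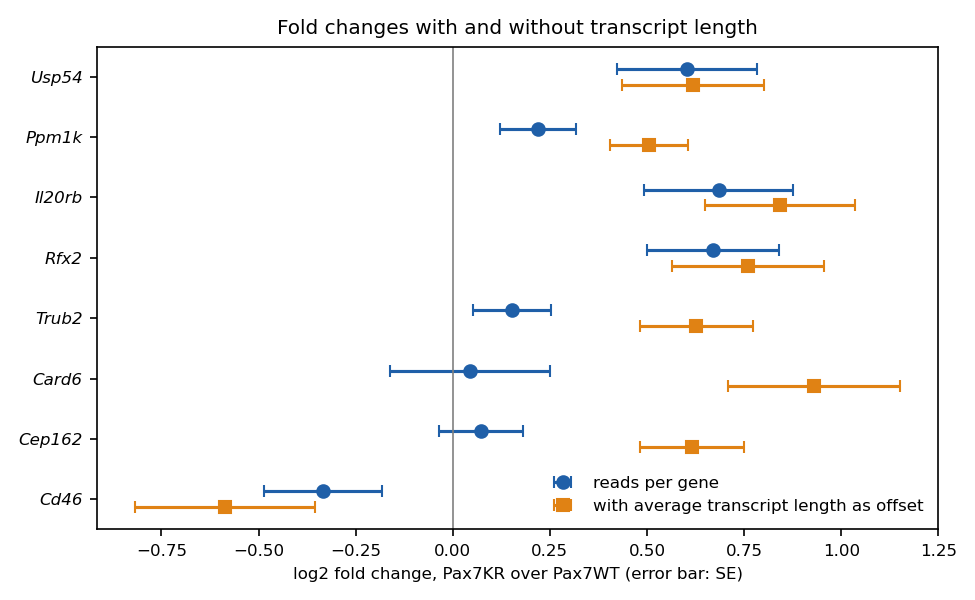
Log2 fold change of Pax7KR over Pax7WT for each of the 8 genes from reads per gene (circles) and after an offset for average length (squares), both from edgeR; error bars are the SE. The symbols lie close together for Usp54, Il20rb and Rfx2 and furthest apart for Card6, at 0.04 and 0.93.

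By TPM, which allows levels of different genes to be compared, Usp54 led at 113 ± 37.8 TPM (SD over 6 libraries), above the other members in each library. Trub2 at 22.6 ± 6.61 TPM and Ppm1k at 22.0 ± 4.85 TPM did not differ beyond their spread, and each was the higher in 3 of 6 libraries. Rfx2 (10.6 ± 3.86 TPM), Cep162 (9.62 ± 2.70 TPM) and Il20rb (8.29 ± 2.97 TPM) followed, with overlapping ranges. Cd46 (3.50 ± 1.05 TPM) and Card6 (2.11 ± 0.819 TPM) were lowest, again with overlapping ranges. The ranges of Il20rb and Cd46 also met, with Il20rb the higher in 5 of 6 libraries. Among all genes tested, these levels reached from the 29.2 percentile for Card6 to the 93.2 percentile for Usp54.

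Both libraries that stood apart weighed on the members. The first was Pax7KR replicate 2. It was the highest of the 6 libraries for 6 genes (Usp54, Ppm1k, Il20rb, Rfx2, Trub2 and Cep162) and the lowest for Cd46. Over all genes tested, it was the highest library for 16.7% and the lowest for 16.1%. The members were chosen as differing between the genotypes, so nothing is read from their count against these shares. The lower Y-linked and higher endothelial values of Pax7KR replicate 2 move with these members, and their part in the result was not tested. Pax7WT replicate 2 was the lowest of the 6 libraries for Ppm1k, Rfx2, Card6 and Cep162 and the highest for Cd46. The matching shares over all genes tested are not given here, and nothing is read from these ranks. Without Pax7WT replicate 2 the log2 fold change was 0.66 for Usp54, 0.65 for Il20rb, 0.53 for Rfx2, 0.17 for Trub2, 0.15 for Ppm1k and −0.26 for Cd46. It changed sign for Card6 (−0.04) and Cep162 (−0.01). The part of the lower immediate early genes of Pax7WT replicate 2 was not tested.

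All 8 genes lie on the minus strand, as did 49.4% of the genes tested, and they are on chromosomes 14, 6, 9, 17, 2, 15, 9 and 1. In the order of naming, Usp54 spans chr14:20548912-20641063, Ppm1k chr6:57506502-57535468, Il20rb chr9:100457719-100486788, Rfx2 chr17:56775897-56831013, Trub2 chr2:29761224-29788502, Card6 chr15:5095981-5108539, Cep162 chr9:87189577-87255536 and Cd46 chr1:195036826-195092249. Of 21 tested genes that overlap a member or are its nearest tested gene on either side, 0 had an unadjusted p under 0.05 from edgeR (0 at an adjusted p under 0.1, and 0 at an unadjusted p under 0.05 with DESeq2). Tested genes on the opposite strand overlap Usp54 (1810062O18Rik and 2810402E24Rik), Ppm1k (Gm45193), Trub2 (Coq4) and Cd46 (A330023F24Rik and Gm37366). Others, such as Gm13547 over Trub2 and Gm24649 within Cep162, held too few reads for testing. The sources used here do not say whether strand was used in counting, so reads where such pairs overlap are uncertain. Coq4 was at 4.82 ± 0.293 CPM (SD, n = 3) in Pax7WT and 4.80 ± 1.13 CPM (SD, n = 3) in Pax7KR, and 2810402E24Rik, at the outer start of Usp54, stood at 6.23 ± 1.19 CPM (SD, n = 3) in Pax7WT and 5.46 ± 0.717 CPM (SD, n = 3) in Pax7KR.

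RefSeq windows of 250 bases before to 50 bases after the start were given for 7 of the 8 genes. The homeobox core TAAT, searched on both strands, occurred in 4 of these 7 windows (Ppm1k, Il20rb, Trub2 and Cep162), with up to 2 sites in a window, against 58.0% of all 32851 mouse windows. The palindrome of TAAT and ATTA with 2 bases between them, which contains the core, occurred in 0 of 7 and in 0.390% of all windows, and the paired core GTCACG in 0 of 7 and in 8.22% of all windows. A match is a run of letters in a short window and not a bound site. The window of Ppm1k, chr6:57535458-57535737 on the minus strand (GRCm38.p6), is shown with its TAAT letters in capitals, as the example with 2 of them.
Ppm1k promoter: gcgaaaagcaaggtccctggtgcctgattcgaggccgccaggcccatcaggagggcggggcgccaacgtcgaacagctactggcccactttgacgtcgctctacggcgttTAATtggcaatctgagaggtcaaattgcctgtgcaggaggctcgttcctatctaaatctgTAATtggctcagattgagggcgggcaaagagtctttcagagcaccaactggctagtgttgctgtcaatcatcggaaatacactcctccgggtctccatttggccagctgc

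The genes whose levels followed each member most closely over the 6 libraries, by Pearson r of log2(CPM + 1) among 10839 genes with a mean of 5 CPM or more, are given as a description. They were Gpkow (0.992) and Rnft1 (0.988) for Usp54, U2surp (0.982) and Six5 (0.980) for Ppm1k, Rnf40 (0.993) and Arfrp1 (0.989) for Il20rb, and Sfpq (0.994) and H2-T23 (0.986) for Rfx2. For Trub2 they were 9130023H24Rik (0.997) and Unkl (0.994), for Card6 Arfip2 (0.985) and Mob2 (0.979), for Cep162 Dpp8 (0.994) and Gm43305 (0.988), and for Cd46 Slc30a5 (0.989) and Smyd4 (0.986). With 6 points and 10839 genes, values this high are the top of a long ranking. No member was among the 2 genes listed for another, which does not set the members apart from each other. Between members, Pearson r reached 0.95 for Il20rb and Trub2 and −0.96 for Ppm1k and Cd46, and was 0.19 for Ppm1k and Card6. These values include the difference between the genotypes that chose the members.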

How the data were processed

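RNA-sequencing was performed on freshly isolated satellite cells of 3 Pax7WT and 3 Pax7KR samples, assigned from their labels. The authors quantified the reads with Salmon 1.3.0 (their notes also name DESeq2 1.28.1) against GENCODE transcripts on GRCm38, with the genome as decoy. The paper states that the estimates were loaded with tximport before the comparison in DESeq2. They deposited estimated counts per transcript, TPM values, and other columns with the transcript and effective length in bases. A deposited table of the authors' own comparison (fold changes and p-values) was not used. Of 140992 transcripts, 139791 (99.15%) were matched by identifier to GENCODE M21, and 0.592% to 0.634% of reads lay on the others.

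The estimated counts were summed per gene and rounded. A gene was kept for testing if at least 2 libraries held 5 or more of its reads. The test was that of edgeR 4.0.16 in R 4.3.3 (TMM, robust quasi-likelihood test on genotype, Benjamini-Hochberg adjustment over 17152 genes, threshold 0.1, unadjusted threshold 0.05). DESeq2 1.42.0 gave alternatives. Averages of effective length per gene and library were weighted by the TPM of each transcript. Levels and sequences were handled in Python 3.11.15 with pandas 2.3.3. The main edgeR fit was tested on simulated data, and the alternative fits were not. The libraries of any pair differed by more than sampling noise. Separate animals are not stated for the samples, so p-values measure the spread between samples, and intervals for counts cover counting error only.

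The 8 genes and all gene lists were chosen with earlier results of these data known. Named genes were the 8 genes, Pax7, up to 3 genes per list with the smallest unadjusted p, fixed partners, neighbours, the 2 genes most like each member, and transcripts with 10% or more of a gene's reads. The short transcripts, Usp54-205, Rfx2-201, Rfx2-203, Gm16077, the Y-linked genes and the markers named one by one were named after their values were seen. Sequences are from GENCODE M21 and RefSeq (GRCm38.p6). Alternatives were the normalization, the filters, shrinkage, the length offset, a replicate block and leaving out each library.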

Additional observations from a re-analysis of the deposited data

How the results depend on the processing

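The direction of Usp54, Ppm1k, Il20rb, Rfx2, Trub2 and Cd46 was the same under all alternatives run. Card6 turned to −0.04 without Pax7WT replicate 2 and likewise without Pax7KR replicate 1, and Cep162 turned to −0.01 without Pax7WT replicate 2. With a library left out, Card6 ranged from −0.04 to 0.18 and Cep162 from −0.01 to 0.15. The length offset moved the fold changes of Card6, Cep162, Trub2, Ppm1k and Cd46 more than any other alternative run. Usp54, Il20rb and Rfx2 moved more with a library left out, with ranges of 0.42 to 0.74, 0.51 to 0.85 and 0.53 to 0.83. The number of genes called was 0 with edgeR, 30 with DESeq2, 45 with DESeq2 and the length offset, 157 with no filter, and 1 to 32 with a library left out, 32 of them without Pax7KR replicate 3. The cause was not tested. Related genes at an unadjusted p under 0.05 numbered 6, and 4 to 12 with a library left out (11 without Pax7WT replicate 2, 12 without Pax7KR replicate 3). Neighbours numbered 0, and 0 to 1 with a library left out (1 without Pax7WT replicate 3 and 1 without Pax7KR replicate 1). With the replicate number as a block (replicate block), 13 genes were called and 6 related genes were under 0.05. Deviations of same-numbered samples correlated at 0.00176, 0.0447 and −0.0558, so the numbers did not pair the samples. Card6 and the short transcripts rest on few reads, which limits what their values can show, and DESeq2 and edgeR used the same reads. The counts of members without Pax7KR replicate 2 and without Pax7WT replicate 2 were added after seeing the data.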
